A study of Caenorhabditis elegans with 2 samples.

Results

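The genes described here belong to the lipid metabolism and yolk families of Caenorhabditis elegans, and the measurement is the chromatin immunoprecipitation sequencing (ChIP-seq) signal of NHR-120 near their transcript starts. Members were the protein-coding genes of the WBcel235 annotation whose symbol is fat-, elo-, acs-, acdh-, lipl-, lbp- or vit- followed by a number. The rule found 74 genes among 19973 nuclear protein-coding genes, made up of 7 fat, 9 elo, 22 acs, 13 acdh, 8 lipl, 9 lbp and 6 vit genes. The rule uses names and no measured value, but it was chosen with earlier results of these data known. The worms were of strain OP415, which carries the integrated array wgIs415, a fosmid (91C03) with nhr-120 tagged with TY1, EGFP and 3xFLAG, and an unc-119(+) rescue of the unc-119(tm4063) mutation. Whole young adults were taken at 64 hours after synchronisation by bleaching and L1 starvation, chromatin was sonicated, and anti-GFP antibody pulled down the tagged receptor. The series holds 1 group with 2 biological replicates and no second condition, so what the data allow is a comparison of the members with all protein-coding genes and of the replicates with each other. No control library was analysed here, and whole animals were used, so the tissue of a signal is not known. The transgene adds a tagged copy of nhr-120 in 1 strain, and its level relative to the native gene was not measured here.

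NHR-120 is a nuclear hormone receptor, a class of zinc-finger transcription factors, some of which are activated by small lipophilic ligands. In C. elegans, several receptors of this family control fat metabolism: NHR-49 and NHR-80 act on fatty acid desaturation and beta-oxidation, and NHR-68 and NHR-10 act on the propionate shunt. The fat genes encode desaturases, which put double bonds into fatty acids, and the elo genes encode elongases. The acs genes encode acyl-CoA synthetases that activate fatty acids, and the acdh genes encode acyl-CoA dehydrogenases, which carry out the opening step of beta-oxidation. The lipl genes encode lysosomal lipases, the lbp genes encode lipid-binding carrier proteins, and the vit genes encode vitellogenins, the yolk proteins that the adult intestine makes and oocytes take up. The intestine is the main site of fat storage and yolk production in the worm.

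For each gene the highest signal was taken among peaks of the ranked list made from both replicates whose summit lay within 1 kb of any transcript start of the gene. This list is long: it holds 115573 peaks, which cover 29.9% of the genome, and only 610 peaks are in the thresholded list, where the IDR (irreproducible discovery rate, low where a peak ranks alike in the lists compared) is at most 0.01. The signal is the authors' own value, and its scale is not stated, so it is used only to rank peaks within 1 list. All 74 members had a ranked summit within 1 kb, against 17792 of all 19973 protein-coding genes (89.1%). The 95% Wilson interval of the members' share, which covers counting error over genes only, was 95.1 to 100%. A ranked summit is common, so the share alone says little about a member.

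None of the 74 members had a summit of the thresholded list within 1 kb, against 343 of all 19973 protein-coding genes (1.72%). A count of 0 of 74 has a 95% Wilson upper limit of 4.93%, which lies above that background. The best reproducibility value of any member's highest peak was a −log10 IDR of 1.81, at lipl-4, and the limit of the thresholded list is 2. The values below therefore describe peaks under the authors' threshold.

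The median of the highest signal was 36.6 over the 74 members and 34.4 over the 17792 protein-coding genes with a ranked summit. Above the all-gene median lay 39 of 74 members (52.7%, Wilson 41.5 to 63.7%), beside a background of 50%. In the top 10% of genes, which begins at a signal of 52.7, lay 9 of 74 members (12.2%, Wilson 6.53 to 21.5%), against 1780 of the 17792 (10%). The background value lies within each of these intervals. The spread among members was wide, with a lowest value of 4.44 at lbp-7 and a highest of 65.7 at lipl-4.

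**Figure D1:**
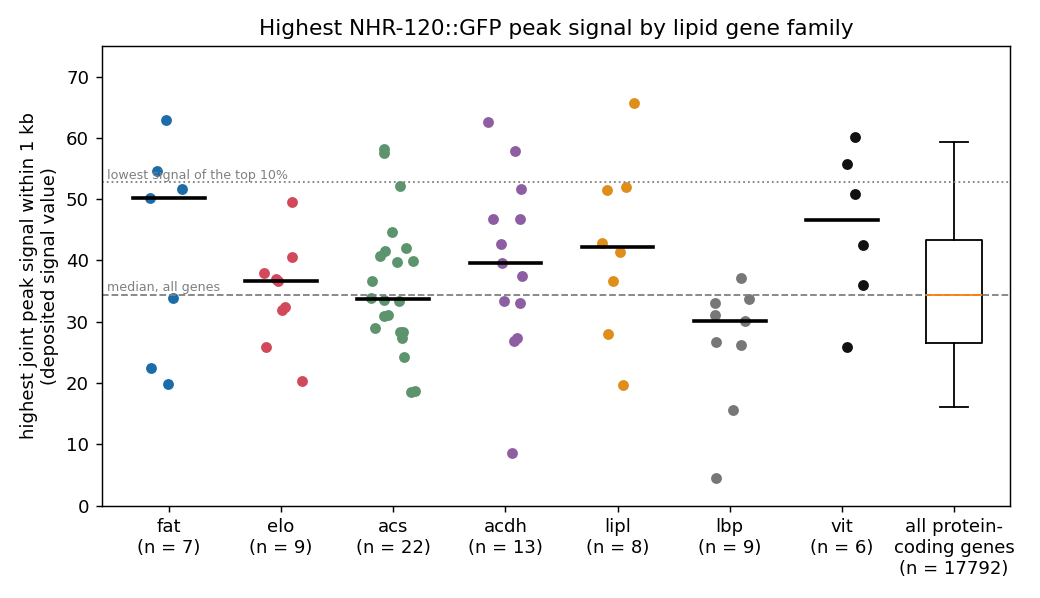
Highest joint peak signal (deposited signal value, vertical axis) within 1 kb of a transcript start for every member, by family, beside all protein-coding genes with a ranked summit. Points are genes, black bars family medians, the box spans the 25th to 75th percentile and the whiskers the 5th to 95th. The fat median (50.2) is the highest of the 7 families and the lbp median (30.2) the lowest, and single genes of most families span much of the all-gene range.

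The desaturases had the highest family median, 50.2 over 7 fat genes, with 4 of 7 above the all-gene median and 2 of 7 in the top 10%. The signal of fat-6, a stearoyl-CoA desaturase that makes oleic acid, was 62.8 in the joint list. At the same site the replicates' own lists gave 31.2 in replicate 1 and 27.7 in replicate 2. Its summit lay 235 bp downstream of the start, in an intron, and the start of ZK822.9 lies within 1 kb as well, so the peak is not assigned to one of the genes by position. The paralogue fat-7, which encodes a second stearoyl-CoA desaturase, had a highest signal of 19.8, 703 bp upstream, and no ranked summit within 1 kb in either replicate's own list. The palmitoyl-CoA desaturase gene fat-5 stood at 22.5. The stearoyl-CoA and palmitoyl-CoA desaturases thus occupied both ends of the family, with fat-6 the highest and fat-7 and fat-5 the lowest of the 7.

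The other fat genes make polyunsaturated fatty acids. Among them fat-2, which turns oleic into linoleic acid, had 54.6, fat-3 had 51.6, fat-1, a desaturase gene that mammals lack, had 50.2 and fat-4 had 33.9. At the fat-2 peak the replicates gave 21.7 in replicate 1 and 33.8 in replicate 2, and at the fat-3 peak 19.2 in replicate 1 and 33.7 in replicate 2. Among protein-coding genes of the same list, fat-2 was at percentile 58.4 in replicate 1 and 92.9 in replicate 2, and fat-3 at percentile 43.2 in replicate 1 and 92.8 in replicate 2. The fat-2 summit lay 464 bp past an internal start, beyond the annotated end of fat-2 and between protein-coding genes. The fat-3 summit lay 19 bp upstream of an internal start. These summits were 2600 and 1476 bp from the outermost start of their genes. With outermost starts only, fat-2 had 41.6 and fat-3 had 32.3, the family median was 32.3 and 1 of 7 remained in the top 10%. The high desaturase median therefore depends on counting internal transcript starts.

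The region around the fat-6 summit is shown because fat-6 was 1 of 2 members in the top 10% of genes in both replicates' own lists. In replicate 2 that rank came from another summit outside the printed region, 425 bp upstream of a start with 35.6. At the printed site replicate 2 had 27.7. It is 100 bases either side of the summit on WBcel235, chrIV:11915352-11915552, minus strand, with the end of a fat-6 coding exon in capitals and the intron in lower case, and none of the words searched (listed below with the promoters) occurs in it.
fat-6: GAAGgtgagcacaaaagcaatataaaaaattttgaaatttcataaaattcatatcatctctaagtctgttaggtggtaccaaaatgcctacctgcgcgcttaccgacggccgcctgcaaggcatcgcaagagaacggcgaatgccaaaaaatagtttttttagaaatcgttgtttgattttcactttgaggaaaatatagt

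Among the elongases the median was 36.6 over 9 elo genes and none lay in the top 10%. The highest was elo-2, a palmitate elongase gene, at 49.5, with 32.6 in replicate 1 and no ranked summit within 1 kb in replicate 2. elo-8 had 40.6 and elo-3 had 37.9. The elo-8 peak was matched by a peak in replicate 2 only and the elo-3 peak by one in replicate 1 only.

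The acyl-CoA synthetase genes had a median of 33.7 over 22 acs genes, with 10 of 22 above the all-gene median and 2 of 22 in the top 10%. acs-4, a long-chain acyl-CoA synthetase gene, had 58.2, with 26.5 in replicate 1 and 28.0 in replicate 2, 766 bp into the gene in a coding exon. acs-22, a fatty acid transport protein homologue, had 57.6, with 42.8 in replicate 1 and no ranked summit within 1 kb in replicate 2. Its summit lay 805 bp upstream of an internal start, in an intron 2573 bp past the outermost start. With outermost starts only, acs-22 had 30.6. acs-2, the fasting-induced mitochondrial synthetase gene and a known target of NHR-49, had 52.2 at 61 bp past the start, with 38.4 in replicate 1 and 17.1 in replicate 2. It lay just below the top 10%.

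Among acyl-CoA dehydrogenases the median was 39.6 over 13 acdh genes, with 8 of 13 above the all-gene median and 2 of 13 in the top 10%. acdh-1, the dehydrogenase gene of the propionate shunt that is widely used as a reporter of low vitamin B12, had 57.9 at 22 bp past an internal start, with 37.3 in replicate 1 and 26.4 in replicate 2. With a 2 kb window, 1 of 74 members had a thresholded summit, against 2.96% of all protein-coding genes. It was acdh-1, with the summit 1641 bp from the nearest start, past the annotated end of acdh-1, with a signal of 44.6 and a −log10 IDR of 2.32. In that peak 22.6% of the 30-base words occur elsewhere in the genome. acdh-11, whose product holds down fat-7 expression, had 51.7, with 36.8 in replicate 2 and no peak at that site in replicate 1.

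acdh-10, a homologue of medium-chain acyl-CoA dehydrogenase, had 62.6, with 26.1 in replicate 1 and 33.4 in replicate 2. Its summit lay 346 bp upstream of the start, inside the neighbouring dehydrogenase gene acdh-7. It is shown because the upstream position is coding sequence: all 201 bases, in capitals, are annotated as a coding exon of acdh-7 on chrX:17215149-17215349, minus strand. The highest summit of acdh-7 itself within 1 kb of its start had 39.6.
acdh-10: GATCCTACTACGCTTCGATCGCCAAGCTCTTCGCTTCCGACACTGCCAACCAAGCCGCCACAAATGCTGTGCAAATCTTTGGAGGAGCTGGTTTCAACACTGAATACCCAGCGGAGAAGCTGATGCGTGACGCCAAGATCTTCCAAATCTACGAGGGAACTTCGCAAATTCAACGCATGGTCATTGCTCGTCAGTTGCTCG

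The lysosomal lipase genes had a median of 42.1 over 8 lipl genes, with 6 of 8 above the all-gene median and 1 of 8 in the top 10%. lipl-4, whose product releases lipid signals that extend lifespan, had the highest signal of all members, 65.7, with 33.3 in replicate 1 and 31.2 in replicate 2 at the same site. This summit lay 987 bp past the nearest start, in an untranslated part of an exon, at an annotated tRNA gene of 82 bases that lies whole within 100 bp of it. The twk-10 start is within 1 kb too, and 26.0% of the 30-base words under the peak occur elsewhere. With summits near short RNA genes left out, lipl-4 had 53.8 at 213 bp upstream of a start and still lay in the top 10%. lipl-2 had 51.9, with 21.6 in replicate 1 and 35.1 in replicate 2. Its summit lay 915 bp upstream, between protein-coding genes, and the ztf-7 start is within 1 kb too. With a 500 bp window lipl-2 had 21.0. lipl-5 had 51.4, with 27.7 in replicate 1 and 25.2 in replicate 2.

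The carrier protein genes were low. The median was 30.2 over 9 lbp genes, 1 of 9 lay above the all-gene median and none in the top 10%. The highest value is taken over all summits in the window. Their median number was 2 per lbp gene, 2.5 per vit gene, 6 per fat gene and 3 over all protein-coding genes. Whether this bears on the family medians was not tested. lbp-4 had 37.1, lbp-6 had 33.7 and lbp-2 had 33.0. lbp-8, whose product carries lipid from the lysosome to the nucleus in the lipl-4 pathway, had 30.2, and lbp-7 had the lowest value of all members, 4.44, with no ranked summit in either replicate's own list. lbp-8 and lbp-7 were named after their values were seen.

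**Figure D2:**
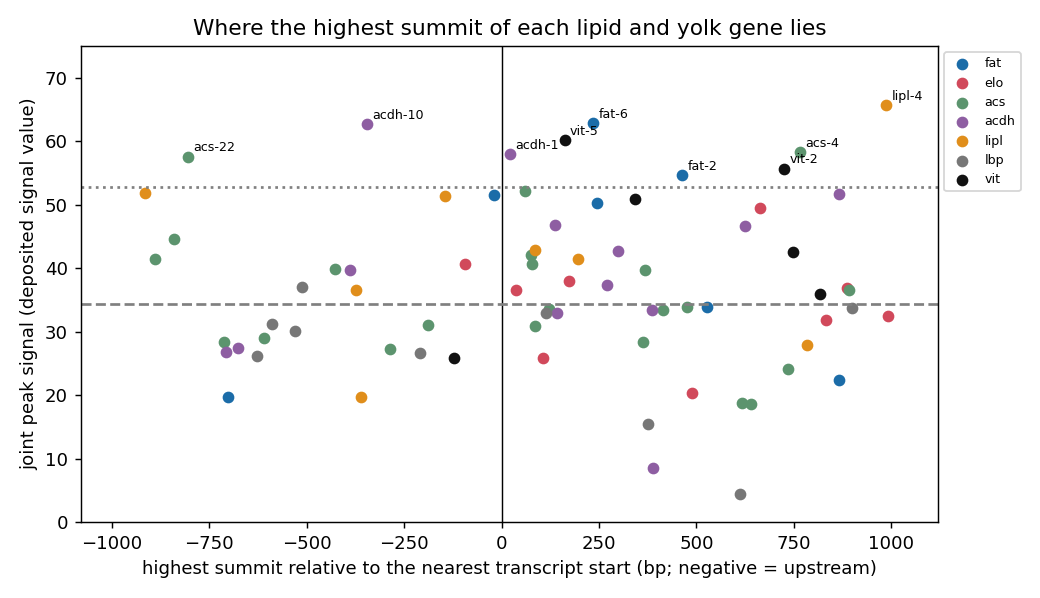
Highest joint signal of each member (vertical axis, deposited signal value) against the position of its summit relative to the nearest transcript start (horizontal axis, bp, negative upstream). Colours are families, the dashed line is the all-gene median and the dotted line the lowest signal of the top 10%. Of the 9 members above the dotted line, 2 have an upstream summit (acs-22 and acdh-10) and 7 a downstream one. The acs-22 summit is upstream of an internal start and lies in an intron of acs-22.

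The highest summits of members lay mostly inside genes. Upstream of the nearest start were 25 of 74 members (33.8%, Wilson 24.1 to 45.1%), against 7892 of the 17792 protein-coding genes (44.4%). A coding exon of the same gene held the highest summit of 36 of 74 members (48.6%, Wilson 37.6 to 59.8%), against 5833 of the 17792 (32.8%). The intervals treat genes as independent, which neighbours and paralogues are not. Of the other members, 16 had the summit between protein-coding genes, 14 in an intron, 6 inside another protein-coding gene and 2 in an untranslated part of an exon. A higher summit between 1 and 2 kb from a start existed for 36 of 74 members (48.6%), against 8245 of the 17792 genes (46.3%). The edge of the window matters for single genes: lipl-4 at 987 bp and elo-7 at 993 bp are just inside it. Just outside are summits of acs-1, at 1001 bp with 26.8, elo-5, at -1003 bp (upstream) with 28.9, and acs-13, at 1005 bp with 60.6. For acs-13 the highest value inside the window was 42.1.

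The yolk genes had a median of 46.7 over 6 vit genes, with 5 of 6 above the all-gene median and 2 of 6 in the top 10%. vit-5 had 60.1, with 36.6 in replicate 1 and 20.6 in replicate 2 at the same site. vit-2 had 55.7, with 28.3 in replicate 1 and 28.5 in replicate 2. vit-6, which encodes the vitellogenin that is cleaved in the body cavity, had 50.8, with 21.8 in replicate 1 and 33.1 in replicate 2. The remaining genes were lower: vit-4 had 42.5, with 26.5 in replicate 1 and 16 in replicate 2. vit-1 had 36.0, with no peak at that site in replicate 1 and 5.46 in replicate 2. vit-3 had 25.9, and neither replicate's own list had a peak there. In 5 of 6 vit genes the summit lay in the coding exons, 162 to 816 bp past the start, and the exception was vit-3 at 122 bp upstream.

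Copies of sequence bear on these values. Of the 30-base words under the peak, 38.7% at vit-5, 37.4% at vit-4 and 23.4% at vit-2 occur elsewhere in the genome. The vit-5 words had their other copies in vit-3 and vit-4, the vit-4 words in vit-3 and vit-5, and the vit-2 words in vit-1. How the authors treated reads that fit several copies is not given in the sources used here, so the share of signal among these paralogues is uncertain. Without peaks over 20% repeated words, vit-5 had 14.6 and vit-2 had 34.8, vit-4 had no peak left, the median of the 5 remaining vit genes was 34.8 and none was in the top 10%. More than 20% of words were repeated at 5 of 74 members' highest peaks (6.76%), against 1520 of the 17792 genes (8.54%).

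The vit-5 summit and the matching bases of its copies are shown to make this concrete. Each run has 121 bases, on X, with capitals at bases that differ from vit-5. vit-3 (chrX:3572328-3572448, minus strand) and vit-4 (chrX:3563753-3563873, minus strand) each have 118 of 121 bases in common with vit-5 (chrX:3403573-3403693, plus strand).
vit-5: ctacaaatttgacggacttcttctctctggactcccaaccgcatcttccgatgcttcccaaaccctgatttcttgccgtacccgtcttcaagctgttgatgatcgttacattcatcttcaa
vit-4: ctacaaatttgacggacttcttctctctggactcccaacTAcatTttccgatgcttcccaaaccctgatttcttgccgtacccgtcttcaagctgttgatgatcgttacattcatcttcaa
vit-3: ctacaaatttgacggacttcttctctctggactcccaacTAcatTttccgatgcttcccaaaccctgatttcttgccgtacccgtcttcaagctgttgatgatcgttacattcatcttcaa
A joint peak with a signal of 60.1 covers the middle of the vit-5 run, and no ranked peak covers the middle of the vit-3 or vit-4 run.

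Ranked summits were found in the bodies of the vit genes as well as near their starts. The genes span 5128 to 5303 bp, and the median was 2.01 summits per kb inside the 6 vit genes, against 1.34 in the 161 protein-coding genes of the same length range. The genes differed: vit-1 had 2.27 summits per kb, vit-2 had 2.15, vit-6 had 2.07 and vit-5 had 1.95, while vit-3 had 1.16 and vit-4 had 0.77, below the value for genes of that length. vit-4 had no summit between 748 and 4042 bp, and vit-3 none between 1583 and 3477 bp. These genes share sequence with each other and with vit-5, as shown above. Whether such copies bear on the counts and gaps was not tested. Over the gene body with 1 kb on each side, the highest summit lay more than 1 kb past the outermost start in 5 of 6 vit genes (83.3%), against 115 of the 161 (71.4%). For vit-5 it was 69.8 at 5734 bp, which is 602 bp past the gene's end. For vit-2 it was 63.9 at 4914 bp and for vit-6 63.2 at 5153 bp, both near the end of the gene. Another protein-coding gene lies within 500 bp of each of these summits: unc-78 for vit-5, C42D8.9 for vit-2 and K07H8.8 for vit-6. By position these peaks are therefore not assigned to the vit genes. The median of the highest signals over gene body and flanks was 52.8 for the vit genes and 44.2 for the genes of the same length.

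**Figure D3:**
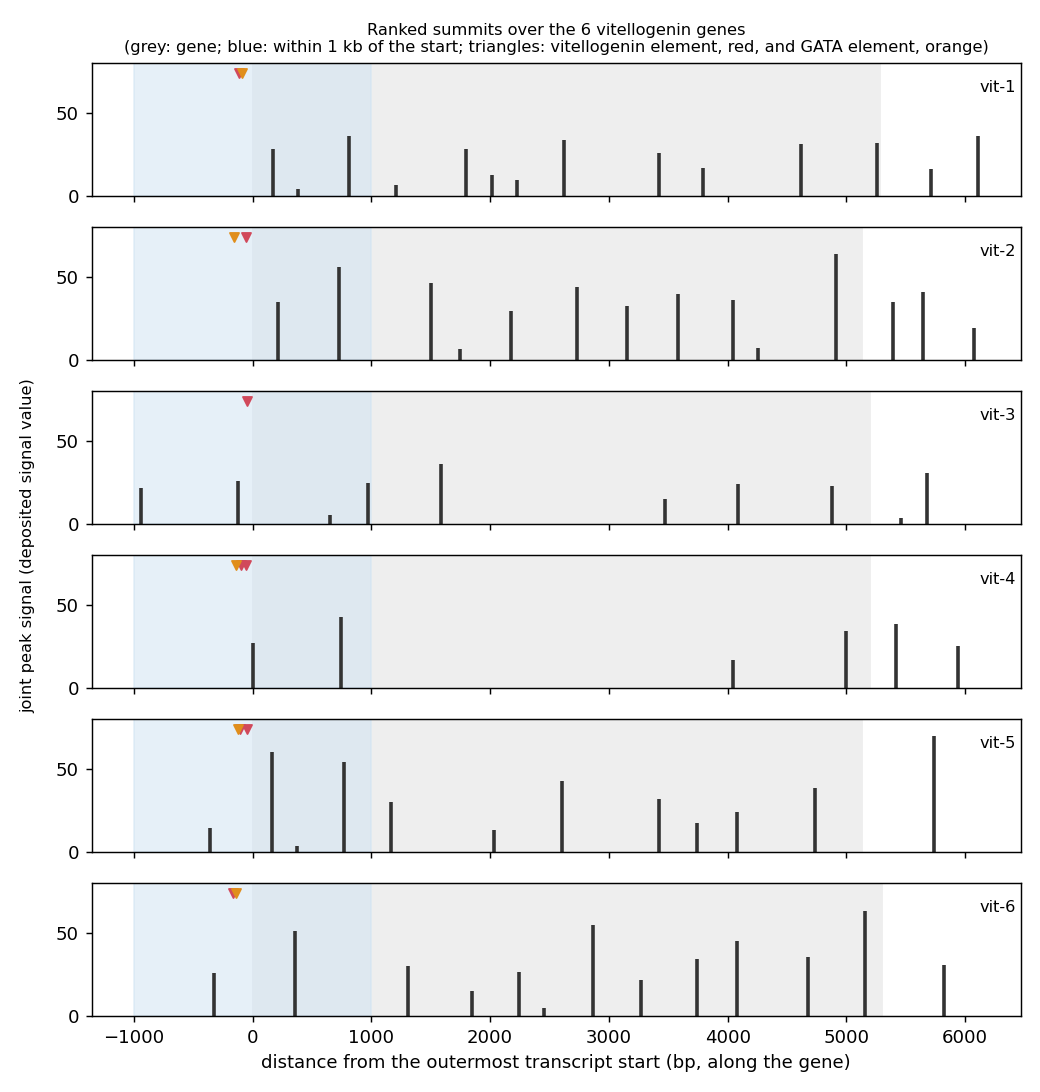
Summits of the joint ranked list over each vit gene and 1 kb on each side, with distance from the outermost transcript start on the horizontal axis (bp) and the deposited signal value as bar height. Grey marks the gene, blue the 1 kb either side of the start, red triangles the vitellogenin element and orange triangles the GATA element CTGATAA of the promoter. Bars stand along most of the length of vit-1, vit-2, vit-5 and vit-6, with a wide gap in vit-3 and vit-4, and in 5 of 6 genes the tallest lies outside the blue area. Whether copied sequence bears on the gaps was not tested.

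Vitellogenin promoters are a textbook case of short shared elements, of which TGTCAAT and CTGATAA are the best known, and the second word contains the core TGATAA bound by intestinal GATA factors. The words were searched on both strands in promoters of 300 bp, from 250 bp before to 50 bp after the outermost start. TGTCAAT and CTGATAA were chosen because they are known from vit promoters, so their vit counts, which enter the member counts, test nothing. TGTCAAT was present in 6 of 6 vit promoters and in 9 of 74 over all members, against 1152 of the 19973 protein-coding promoters (5.77%). Outside vit it was in 1 of 7 fat, 1 of 22 acs and 1 of 8 lipl promoters and in no elo, acdh or lbp promoter. CTGATAA was present in 5 of 6 vit promoters and in 15 of 74 members, against 1628 of the 19973 (8.15%). TGATAA was present in 34 of 74 member promoters, against 6026 of the 19973 (30.2%). By family it was in 6 of 6 vit, 7 of 8 lipl, 5 of 9 lbp, 4 of 9 elo, 9 of 22 acs, 2 of 13 acdh and 1 of 7 fat promoters, so the acdh and fat shares (15.4% and 14.3%) lay below the all-gene share. AGGTCA, the half-site that many nuclear receptors bind, was present in 6 of 74 member promoters, against 1651 of the 19973 (8.27%). These were 3 of 9 lbp, 2 of 22 acs and 1 of 7 fat promoters, and none of the elo, acdh, lipl or vit promoters. The NHR-120 motif was not tested.

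The vit-2 promoter is shown because its elements can be set against the peaks. It is chrX:5100792-5101091, plus strand, with CTGATAA and TGTCAAT in capitals.
vit-2: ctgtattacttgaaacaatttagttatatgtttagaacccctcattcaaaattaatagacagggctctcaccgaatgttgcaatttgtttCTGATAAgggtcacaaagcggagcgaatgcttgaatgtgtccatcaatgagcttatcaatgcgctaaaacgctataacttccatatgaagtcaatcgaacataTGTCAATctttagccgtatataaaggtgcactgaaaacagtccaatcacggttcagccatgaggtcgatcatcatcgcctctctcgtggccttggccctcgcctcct
No ranked peak covers either word, and the nearest summit is 272 bp from TGTCAAT, inside the gene, with a signal of 34.8. Over the 6 genes, 3 of 8 copies of TGTCAAT lay under a ranked peak, all in vit-3 and vit-4, where the peaks had 25.9 and 27.4. None of 5 copies of CTGATAA lay under one. Ranked peaks cover 29.9% of the genome, and the share of such copies under a peak was not counted over all promoters, so these small counts say little.

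**Figure D4:**
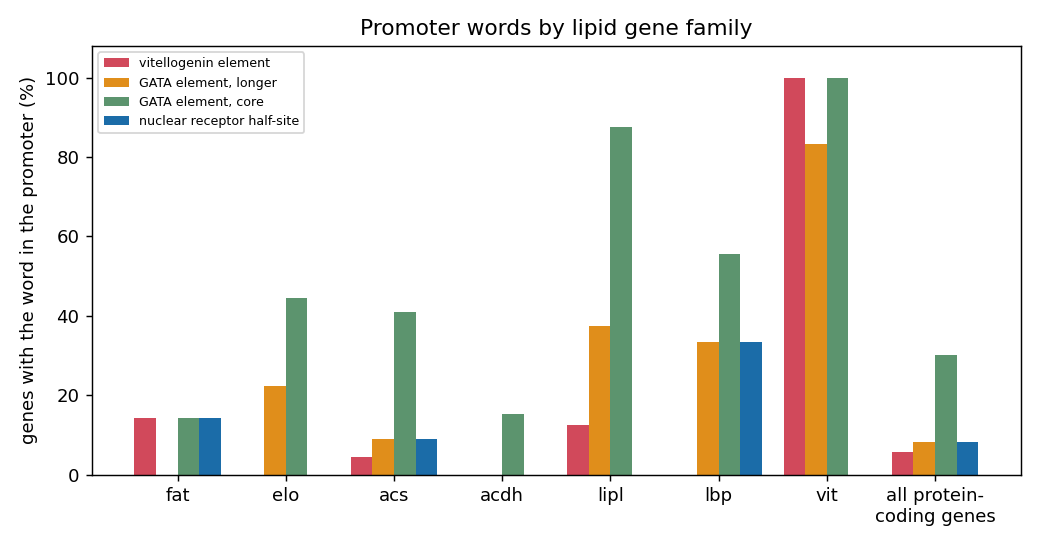
Share of genes (percent, vertical axis) with each of the words TGTCAAT (red), CTGATAA (orange), TGATAA (green) and AGGTCA (blue) in the promoter of 300 bp, by family and over all protein-coding genes. The vit bars for TGTCAAT (100%) and TGATAA (100%) and the lipl bar for TGATAA (87.5%) stand above the all-gene bars (5.77% and 30.2%), and the acdh and fat bars for TGATAA (15.4% and 14.3%) stand below. TGTCAAT and CTGATAA, which contains TGATAA, were chosen because they are known from vit promoters, so high vit bars were set by that choice.

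The same words were counted within 100 bp of the highest summits. AGGTCA was found at 5 of 74 members, against 1013 of the 17792 genes (5.69%), and 4 of the 5 are acs genes: acs-5, acs-12, acs-18 and acs-19. TGTCAAT was found at 2 of 74, against 699 (3.93%), CTGATAA at 4 of 74, against 609 (3.42%), and TGATAA at 11 of 74, against 2669 (15%). These counts are small and depend on the window. With 500 bp, AGGTCA was near 2.86% of member summits, against 5.72% over all genes, and TGTCAAT near 5.71%, against 3.93%. With 2 kb, TGTCAAT was near 10.8% of member summits, against 3.99% over all genes, so neither word kept its direction against all genes. These 4 acs genes were named after their values were seen.

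The replicates' own lists were used to see whether the same genes are high in each. A ranked summit within 1 kb was present in replicate 1 for 63 of 74 members (85.1%), against 14745 of the 19973 protein-coding genes (73.8%). In replicate 2 it was present for 58 of 74 (78.4%), against 14421 (72.2%), and in both lists for 53 of 74 (71.6%, Wilson 60.5 to 80.6%), against 11734 (58.7%). The joint peak that gave a member's value overlapped a peak of both replicates for 37 of 74 (Wilson 38.9 to 61.1%), against 7650 of the 17792 (43%). Neither list held a summit for 6 members: acdh-4, acs-10, acs-16, acs-24, fat-7 and lbp-7.

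Genes that were high in one replicate were often not high in the other. The top 10% of replicate 1 held 9 members (acdh-1, acs-2, acs-13, acs-22, elo-2, fat-6, lipl-4, lipl-5 and vit-5), and the top 10% of replicate 2 also held 9 (acdh-10, acdh-11, acdh-13, fat-2, fat-3, fat-6, lipl-2, lipl-4 and vit-6). fat-6 and lipl-4 were in both, 2 of the 53 members listed in both replicates, against 448 of 11734 genes (3.82%). Each percentile uses the highest summit of that list, which need not be the same site: in replicate 2 the highest summit lay 425 bp upstream of a fat-6 start, with 35.6, and 210 bp upstream of a lipl-4 start, with 31.9. Spearman's rho of the highest signals of the replicates, over genes in both lists, was 0.10 over 53 members and 0.26 over 11734 protein-coding genes, given as a description across genes that share libraries. The fat genes had a median percentile of 50.8 in replicate 1 and 77.6 in replicate 2, and the elo genes 48.4 in replicate 1 and 25.2 in replicate 2. The lipl medians, 73.7 in replicate 1 and 75.3 in replicate 2, were the closest of the 7 families.

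**Figure D5:**
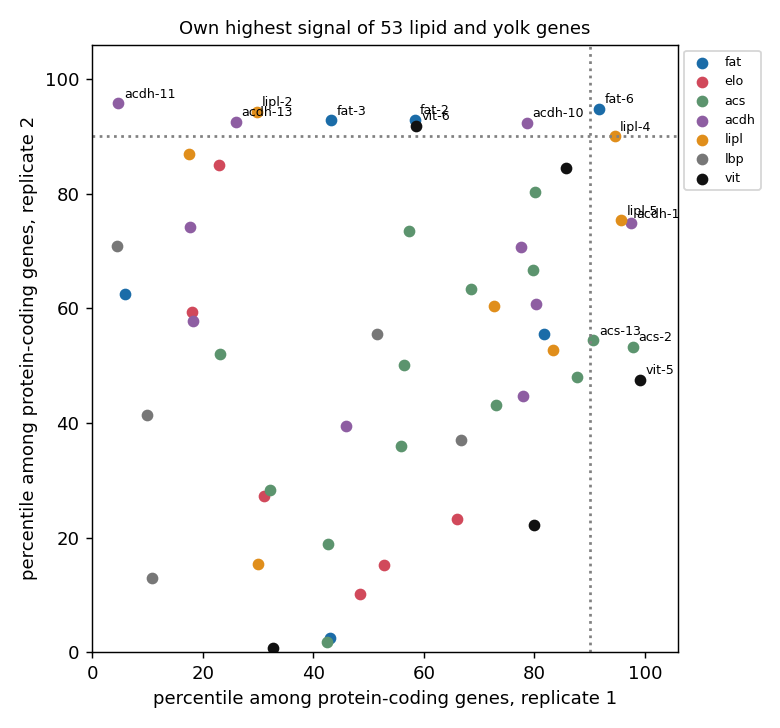
Percentile of each member's own highest signal among protein-coding genes in replicate 1 (horizontal axis) and in replicate 2 (vertical axis), for the 53 members listed in both. Dotted lines mark the top 10% and colours are families. fat-6 and lipl-4 are the members beyond both lines, and most members beyond 1 line lie well below the other.

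Genes of neighbouring lipid pathways were set beside the members, and 2 of them, hpo-8 and plin-1, had a thresholded summit within 1 kb, where the share over all protein-coding genes was 1.72%. In the order below, the lists held 7, 10, 13, 14, 10, 5 and 19 genes found in the annotation, with ech-6 in 2 lists. A count of 2 among so many genes says little. Of 7 fatty acid synthesis genes, 1 lay in the top 10%, hpo-8, an acyl-CoA dehydratase homologue, at 61.9, and it had a thresholded summit 402 bp past the start (−log10 IDR 2.02). In that list acly-2 followed at 41.6. Of 9 triglyceride and lipid droplet genes with a ranked summit, 3 lay in the top 10%: dgat-2, a diacylglycerol acyltransferase gene, at 75.9, the lipid droplet protein gene plin-1 at 66.8, and the lipase gene atgl-1 at 59.1. plin-1 had a thresholded summit 93 bp past a start with a signal of 62.4. seip-1 had no ranked summit and 1 symbol of that list, lpla-1, was not found in the annotation.

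Mitochondrial beta-oxidation genes had a median of 41.7 over 13 genes, with 3 in the top 10%, led by cpt-3 at 56.0 and acaa-2 at 54.6. Peroxisomal genes had a median of 31.7 over 14, led by acox-1.4 at 51.6 and daf-22 at 50.8, and propionate and vitamin B12 genes one of 40.4 over 10, led by hphd-1 at 52.4 and ech-6 at 52.1. Neither list had a gene in the top 10%. Yolk export and uptake genes had a median of 29.8 over 5, with rme-1 at 44.8 and the yolk receptor gene rme-2 at 34.0. Of 19 regulators of lipid and yolk genes, 4 lay in the top 10%, led by unc-62, a homeodomain gene that acts on vit expression, at 62.1, and nhr-114 at 61.4, where 41.7% of words are repeated. No gene of these other lists had a thresholded summit within 1 kb.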

How the data were processed

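Peak lists of NHR-120::GFP ChIP-seq from 2 biological replicates were used: 4 ranked and 4 thresholded lists on ce11, as named in the labels. The joint lists derive from both alignments, per the deposited file descriptions. Each deposited peak has a signal value and a −log10 q value, and the joint ranked list also has a −log10 IDR. Software and the scale of the signal were not given in the sources used here. No read counts are given, so depth is unknown, and Wilson intervals (95%) cover counting over genes only. In the ranked lists, 8 columns of paired signals carry no sample names and were not used.

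Ensembl release 115 supplied the gene models (WBcel235, the assembly that ce11 names), and RefSeq the genome bases. The 12 mitochondrial protein-coding genes were left out. A summit counted for every gene with a transcript start within 1 kb, the highest signal was kept, and genes were ranked within each list. Repeated sequence was scored as the percent of 30-base words under a peak that occur again in the genome. With 1 group no test over samples was possible, and no p-value is given.

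The members and lists were chosen with earlier results of these data known. Named genes are every vit gene, the 3 highest of each other family, all members in the top 10%, members with a thresholded summit or without a ranked one, and the 2 highest of each other list. Any other gene was named after its values were seen. Assignment was tested on simulated data. Alternatives were other windows, starts, lists and filters. Python 3.11.15, pandas 2.3.3, numpy 2.4.6 and matplotlib 3.10.9 were used.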

Additional observations from a re-analysis of the deposited data

How the results depend on the processing

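Of 96 alternative values, 76 stayed within the replicate or counting spread and 20 moved. All members had a ranked summit in the main list, against 89.1% of all protein-coding genes. With a 500 bp window 94.6% did, against 79.0%, and with the other joint ranked list 94.6%, against 88.8%. With a −log10 q of at least 0.1 (a limit chosen after seeing the data) 27.0% did, against 21.7%. A single replicate's list gave 78.4 to 85.1%, against 72.2 to 73.8%. The median signal (main 36.6) was 31.4 with a 500 bp window, 42.3 with 2 kb, 33.5 with outermost starts, 33.9 without repeated sequence, 52.0 with the q limit, and 21.7 to 22.3 in single replicates, which are separate lists; the all-gene median was 29.2, 40.2, 33.2, 33.7, 50.7, 20.3 and 21.1 in the same order, so members stayed above it. The count in the top 10% (main 9) was 9 to 13 under the other settings and 0 of 20 with the q limit, so that share fell below that of all genes. Members with a thresholded summit numbered 1 of 74 with a 2 kb window, against 2.96% of all protein-coding genes. Members in both replicates' lists (main 53) were 32 with 500 bp and 27 with the q limit. Words near summits changed direction against all genes: AGGTCA (main 6.76% against 5.69%) was 2.86% against 5.72% with 500 bp, TGTCAAT (main 2.70% against 3.93%) was 10.8% against 3.99% with 2 kb and 5.71% against 3.93% with 500 bp, and CTGATAA (main 5.41% against 3.42%) was 0% against 2.52% with the q limit. With that limit TGTCAAT was 0% against 3.10%. AGGTCA also fell slightly below all genes, and TGTCAAT slightly above, in some other settings. TGATAA (main 14.9% against 15%) lay on either side, with 22.9% against 15.9% at 500 bp and 11.1% against 15.4% without replicate 2. The cause was not tested. The planned limit of a −log10 q of 2 left no peak, since the highest was 1.63, and was not run further. No paired analysis was possible because the series has 1 group. Depth is unknown, signals at paralogues and at neighbouring starts are not told apart, and a ranked summit is common.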

Other observations

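The highest ranked peaks beside members of the acyl-CoA synthetase family lay past the genes' ends, close to other genes. The peak with a signal of 190.6 lay 479 bp past the end of acs-19, next to the ribosomal protein gene rpl-3, with a −log10 IDR of 3.76, and the replicates gave 76.5 in replicate 1 and 117 in replicate 2. The peak of 83.7 lay 787 bp past the end of acs-20, near rps-23 and dpm-3, with a −log10 IDR of 2.62 and with 35.0 in replicate 1 and 47.4 in replicate 2. The peak of 71.5 lay 370 bp past the end of acs-22, at a tRNA gene and near dylt-2, with a −log10 IDR of 2.05 and with 44.0 in replicate 1 and 26.4 in replicate 2. These peaks are farther than 1 kb from the starts of the acs genes, so they entered none of the members' values above.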
